A study of Mus musculus with 6 samples.

Results

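The forkhead (Fox) and Sox transcription factors were read on arrays of mouse skin keratinocytes sorted by the activity of a keratin 15 promoter. The members were all probe sets of the value table whose platform gene symbol begins with Fox, a letter from a to s and a digit, or with Sox and a digit. This rule gave 39 of 8251 named genes, 26 forkhead genes with 32 probe sets and 13 Sox genes with 22, so 54 of 12422 probe sets. The cells came from K15-EGFP transgenic mice, which carry the green fluorescent protein EGFP under the K15 promoter, and were sorted by flow cytometry. There were 3 samples of EGFP-high cells and 3 of EGFP-negative cells, both from transgenic mice and both, per the labels, positive for α6 integrin. The labels give no age, strain or treatment, and nothing in them ties a replicate to an animal or a sort, so a p-value covers only the spread between these arrays, some of it possibly technical.

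Forkhead factors share a winged-helix DNA-binding domain and Sox factors an HMG box that bends DNA. In skin, Foxn1 is the gene of the nude mouse and Foxq1 that of the satin coat, both acting in hair shaft formation. Foxc1 and Foxp1 are known for holding follicle stem cells quiescent, and the FoxO factors act below insulin and PI3 kinase signalling. Among Sox genes, Sox9 is a main factor of the bulge, where the stem cells of the hair follicle reside. No probe set taken by the rule had the symbol Sox9, so it was not analysed here. Sox10 marks neural crest derivatives such as melanocytes and Schwann cells, the SoxF genes Sox7, Sox17 and Sox18 act in endothelium, and Sox2 is found in dermal papilla and Merkel cells.

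The unit throughout is the intensity the authors deposited, 1 linear value per probe set and array, and the 6 arrays had medians of 69.75 to 76.2. A probe set was counted as above the control level in a group where it exceeded, on all 3 arrays, the 95th percentile of 15 control rows for Bacillus transcripts. That level was 25.9 to 43.95 over the arrays. The sort was read through other genes: Cd34, a bulge surface marker, had a mean of 1456 ± 120.2 in the EGFP-high group and 34.9 ± 5.77 in the EGFP-negative group (SD, n = 3 each), and the means of Itga6, the gene of α6 integrin, were 492 ± 90 and 1199.8 ± 162. The probe sets of Krt15 and Krt14 were above the control level in neither group, so Krt15 itself gave no check. A value that is not above the control level thus does not show that a gene was not expressed. EGFP-high replicate 1 lay nearest to the other group on the first principal component (score 10.05, against 29.46 and 24.28 for the other EGFP-high arrays and -29.09 to -15.98 for EGFP-negative), and the 1 member whose call changed without it, Foxp1 96183_at, is given with both values.

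A smaller share of Fox and Sox probe sets than of all probe sets lay above the control level. Of the 54 members 25 (46.3%) were above it in at least 1 group, against 63.4% of all 12422 probe sets, a difference given as a description with no test. The count was 19 in both groups, 1 in EGFP-high only and 5 in EGFP-negative only. By gene, 22 of 39 had such a probe set, 13 of 26 forkhead genes and 9 of 13 Sox genes. The other 29 probe sets had values between 1.3 and 80.9, with a median of 13.95. The count depended on the control chosen: 22 members exceeded the highest control row and 20 the 40th percentile of all probe sets.

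**Figure D1:**
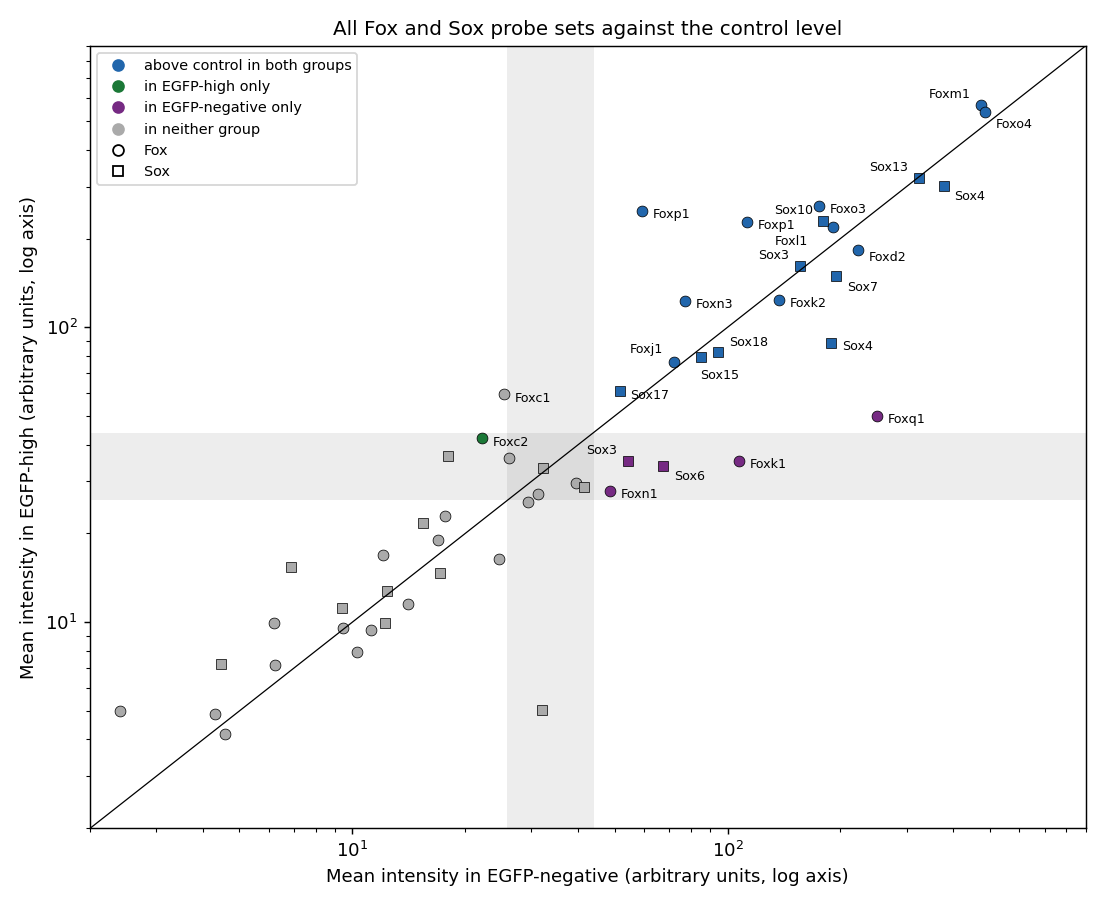
Mean intensity of each of the 54 Fox (circles) and Sox (squares) probe sets in EGFP-negative (x axis) and EGFP-high cells (y axis), in arbitrary units on log axes; the line marks equal means and the grey bands span the control level of 25.9 to 43.95. Foxp1 lies above the line, Foxq1 and Foxk1 lie below it, and 29 grey points are above the control level in neither group.

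Between the groups, 3 probe sets passed the test: Foxp1 was higher in EGFP-high cells, and Foxq1 and Foxk1 were lower. Intensities were compared as log2(value + 19.3), the added constant being the 25th percentile of the table, and the dimmest 40% of probe sets by mean log2 value were left out. A log2 difference on this scale understates the change of dim genes. The test was limma over all 7453 such probe sets, two-sided, with Benjamini-Hochberg adjustment and a threshold of 0.05. It included 22 members for 20 genes, and 3 of the 22 (13.6%) passed beside 5.19% of all probe sets tested (1 higher beside 3.02%, 2 lower beside 2.17%). All 3 were forkhead probe sets, 3 of 12 tested, and 0 of 10 Sox probe sets passed by limma. Of those 10, 2 had an unadjusted limma p under the same threshold, beside 17.1% of all probe sets tested. With the replicate number as a block 5 of 22 passed, 1 of them a Sox probe set, beside 10.4% of all (2 higher beside 5.13%, 3 lower beside 5.31%). Groups did not overlap for 9 of the 22 (40.9%), beside 22.7% of all tested. The members had a median log2 difference of 0.016, and all probe sets tested -0.002. In sorted bulk RNA, fewer cells of a type and less RNA per cell cannot be told apart.

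**Figure D2:**
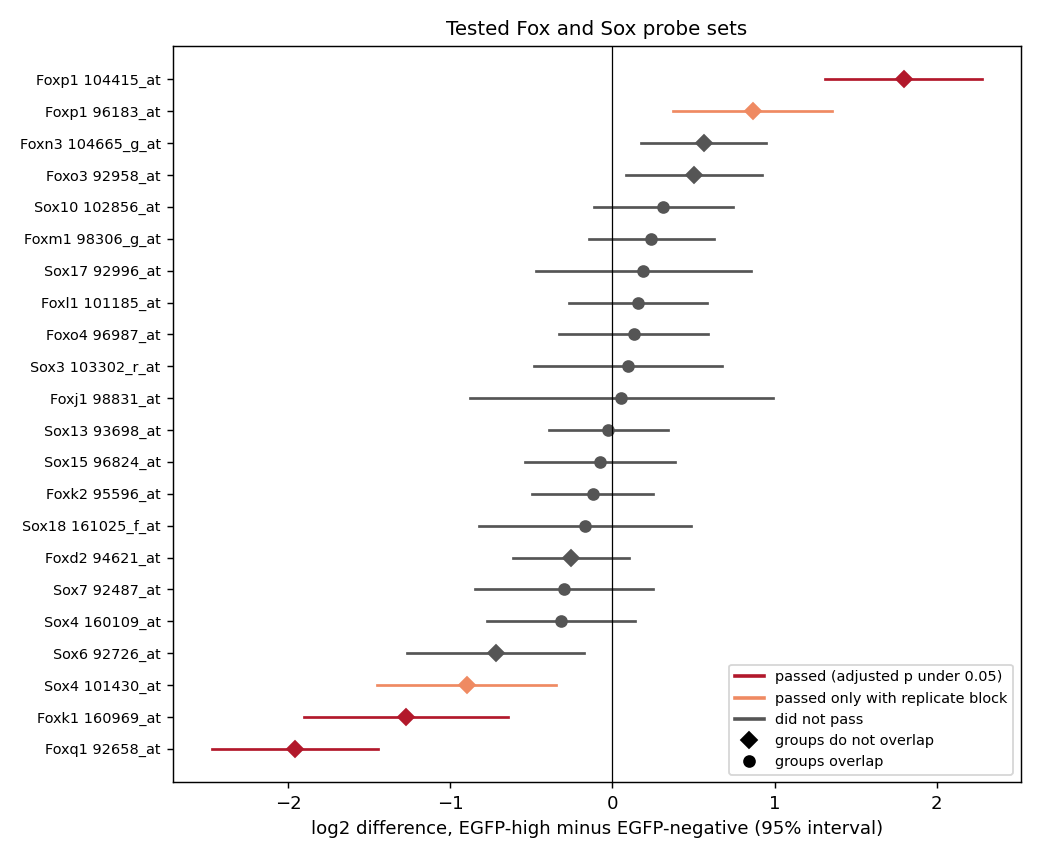
The log2 difference, EGFP-high minus EGFP-negative, of the 22 tested Fox and Sox probe sets (x axis) with its 95% interval, n = 3 arrays per group; diamonds mark groups that do not overlap. Foxp1 104415_at stands highest at 1.80 and Foxq1 lowest at -1.96, and 17 intervals belong to probe sets that passed neither with nor without the replicate block.

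Foxp1, a forkhead repressor, was the member that rose. Its probe set 104415_at read 235.5, 223.8 and 287.1 in EGFP-high replicates 1, 2 and 3, and 50.7, 81.7 and 44.8 in EGFP-negative replicates 1, 2 and 3. Every EGFP-high array was above every EGFP-negative array. The means were 249 ± 33.7 against 59.1 ± 19.8, a log2 difference of 1.80 (SE 0.21, limma adjusted p = 0.00177). The call held when each array was left out in turn (adjusted p up to 0.015). A further probe set of the gene, 96183_at, read 162.3, 221.1 and 299.4 against 115.3, 118.1 and 105.1. Its groups did not overlap either, with EGFP-high replicate 1 the lowest of its group. The log2 difference was 0.87 (SE 0.22), with a limma adjusted p of 0.0567, of 0.0296 with the replicate block and of 0.0145 without EGFP-high replicate 1. The 2 probe sets thus had the same direction and different sizes, and the brighter one, 96183_at, did not pass. Counted by the brightest probe set of each gene, 2 of 20 tested Fox and Sox genes passed, beside 5.33% of all genes, and by any probe set 3.

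Foxp1 has 3 start sites in the RefSeq promoter table (GRCm38.p6), and the files do not say which transcript each probe set reads. The 250 bases before each start are shown because Foxp1 was the member that rose, and the window of Sox4 because it was the Sox gene that passed with the replicate block. All lie on the minus strand and are written 5′ to 3′ of the gene, with matches to the Sox core ACAAT (or its reverse complement ATTGT) in capitals. The forkhead letters TGTTTAC (or GTAAACA) were searched on both strands as well and are in none of these 4 windows. Matches of the 2 motifs can share bases.
Foxp1 start at chr6:99520994-99521243: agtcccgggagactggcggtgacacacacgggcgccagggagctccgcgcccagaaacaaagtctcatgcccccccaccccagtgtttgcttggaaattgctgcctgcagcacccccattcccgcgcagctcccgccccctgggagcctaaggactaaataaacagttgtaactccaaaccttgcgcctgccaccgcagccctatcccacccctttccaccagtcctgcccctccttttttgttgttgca
Foxp1 start at chr6:99266516-99266765: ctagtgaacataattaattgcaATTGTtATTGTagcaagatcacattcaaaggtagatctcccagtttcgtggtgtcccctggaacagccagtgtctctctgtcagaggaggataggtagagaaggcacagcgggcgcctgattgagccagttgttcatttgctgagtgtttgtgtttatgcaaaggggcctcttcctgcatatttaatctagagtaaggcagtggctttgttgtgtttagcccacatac
Foxp1 start at chr6:99028299-99028548: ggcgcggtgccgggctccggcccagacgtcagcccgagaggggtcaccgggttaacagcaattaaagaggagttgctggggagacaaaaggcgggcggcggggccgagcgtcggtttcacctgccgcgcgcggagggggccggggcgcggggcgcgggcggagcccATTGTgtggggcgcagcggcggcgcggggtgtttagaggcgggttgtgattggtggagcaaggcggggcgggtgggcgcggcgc
Sox4 start at chr13:28953700-28953949: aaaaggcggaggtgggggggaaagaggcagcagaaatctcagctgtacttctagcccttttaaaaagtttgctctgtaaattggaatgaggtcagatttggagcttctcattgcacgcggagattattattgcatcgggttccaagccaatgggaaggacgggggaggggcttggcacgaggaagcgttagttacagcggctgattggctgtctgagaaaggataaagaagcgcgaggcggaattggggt
The middle Foxp1 window holds 2 Sox matches, which begin 228 and 222 bases before the start, and the last holds 1, at 84 bases. GC content was 60.8%, 45.2% and 74% in the Foxp1 windows in this order and 50.8% in that of Sox4, where the median of all windows was 52.4%. Of 32851 windows of this length in the table, 27.7% held a Sox match and 3.2% a forkhead match. Windows were listed for 23 of the 39 genes, 32 windows in all, of which 8 (25%) held a Sox match and 1 (3.1%), that of Foxa1, a forkhead match. Foxq1 and Foxk1, which also passed the test, had no listed window, so none is shown for them. A match is a run of letters and not a measured binding site.

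Foxq1, whose loss gives the satin coat, fell in EGFP-high cells. It read 53.5, 34.4 and 62.4 in EGFP-high replicates 1, 2 and 3, and 190.3, 289.7 and 269 in EGFP-negative cells. EGFP-negative cells held all of the high values, and in EGFP-high cells replicate 2 was below the control level. The means were 50.1 ± 14.3 against 250 ± 52.4, a log2 difference of -1.96 (SE 0.23, limma adjusted p = 0.00164). Its call held without any single array (adjusted p up to 0.00974). Because the EGFP-high values lay near the control level, the size depended on the pseudocount and ran from -2.23 to -1.35 over 15 alternative settings, all of which gave a call, as they did for Foxp1 104415_at (1.26 to 2.02).

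Foxk1, a forkhead factor first known from muscle progenitors, was lower in EGFP-high cells, with less certainty. Its values were 58.8, 24.8 and 21.8 in EGFP-high and 126.5, 98.8 and 96.4 in EGFP-negative cells. The groups did not overlap, and only replicate 1 of the EGFP-high arrays was above the control level. The log2 difference was -1.27 (SE 0.28, limma adjusted p = 0.0333; 0.00881 with the replicate block). The call was lost without any 1 of 5 arrays (the highest adjusted p was 0.124, with EGFP-high replicate 3 left out) and with no filter on low values (adjusted p = 0.0762), and it held without EGFP-high replicate 1 (adjusted p = 0.0055). Its relative Foxk2 did not pass on the probe set 95596_at, at 118.1, 124.5 and 128.6 against 139, 153 and 118.4, with overlapping groups and a log2 difference of -0.12 (95% interval -0.49 to 0.25). The difference between Foxk1 and Foxk2 was not tested.

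**Figure D3:**
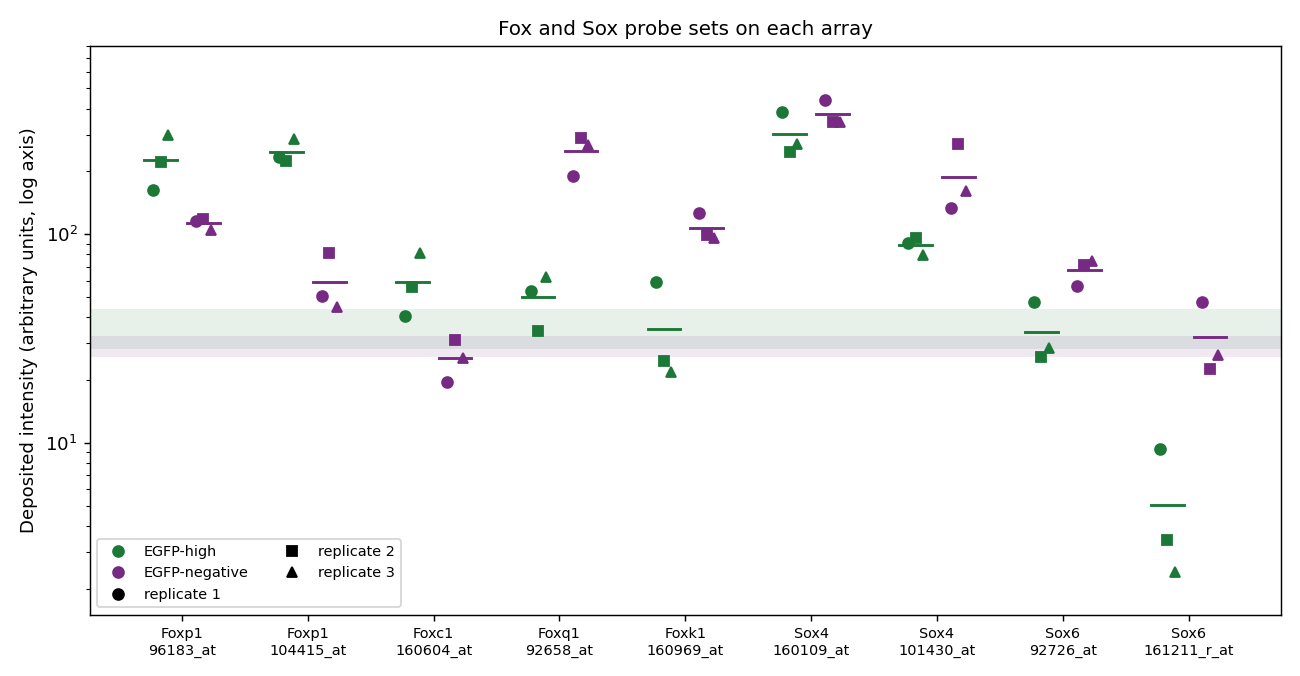
Deposited intensity on each array (log axis, arbitrary units) for 9 Fox and Sox probe sets, EGFP-high in green and EGFP-negative in purple, with marker shape giving the replicate number and bars the group means; the shaded bands span the control level of each group. Foxp1 and Foxc1 are higher in all 3 EGFP-high arrays, and Foxq1, Foxk1, Sox4 101430_at and both Sox6 probe sets are lower in all 3.

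The FoxO factors and Foxn3 did not pass the test. Foxo3, which acts in stress resistance and quiescence, read 235, 312.7 and 226.6 in EGFP-high and 204.5, 167.8 and 154.5 in EGFP-negative cells. The groups did not overlap, the log2 difference was 0.50 (95% interval 0.09 to 0.92) and the limma adjusted p was 0.19, or 0.106 with the replicate block. Foxn3, a checkpoint-linked repressor, read 130.5, 133.2 and 105.9 against 76.2, 77 and 77.3 on 104665_g_at. These groups were also apart, with a log2 difference of 0.56 (95% interval 0.18 to 0.95) and an adjusted p of 0.115 by limma. The other Foxn3 probe set, 104664_at, had the lower mean in EGFP-high cells, at 19.7, 8 and 21.6 against 29.5, 33.9 and 10.6. Its groups overlapped, and it was above the control level in neither. Foxo4 gave 445.9, 687.3 and 479.5 against 422.1, 570.2 and 460.3. Its groups overlapped, although EGFP-high was higher in all 3 same-number pairs, and the log2 difference was 0.13 (95% interval -0.33 to 0.59).

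Foxm1, a forkhead activator in G2 and mitosis, did not pass the test, while 4 genes on a list of G2 and mitosis genes fell. The probe set 98306_g_at read 502.3, 672 and 526.3 in EGFP-high and 419, 515.2 and 490.2 in EGFP-negative cells. The groups overlapped, although EGFP-high was higher in all 3 same-number pairs. The log2 difference was 0.24 (95% interval -0.15 to 0.63, limma adjusted p = 0.553). The companion probe set for the same accession, 98305_at, read 7.7 to 13 and was below the control level on all arrays, so the 2 Foxm1 probe sets disagreed on whether the gene was above it. Of 15 tested genes on the list of G2 and mitosis genes, written around FOXM1, 0 were higher and 4 lower. Among all 5628 genes tested 3.06% were higher and 2.27% lower. The list was written with earlier results of these data known, so its direction is not independent evidence. The median log2 difference of the 15 was -1.03. Whether FOXM1 drives them in these cells was not tested. The mitotic kinase Aurkb read 28.7 ± 4.66 against 135 ± 23.7 (log2 -1.68, SE 0.21), and its EGFP-high values were not above the control level, so this size depends on the pseudocount. Cks2, a cyclin kinase subunit, fell from 372 ± 123 to 102 ± 12.4 (log2 -1.65), Top2a, a topoisomerase of dividing cells, by 1.29 and the cyclin Ccnb2 by 1.04 on the log2 scale. Top2a lost its call without any 1 of 4 arrays (the highest adjusted p was 0.105, with EGFP-negative replicate 3 left out) and Ccnb2 without any 1 of 5 (0.156, with EGFP-high replicate 2 left out). The number lower came to 2 when EGFP-high replicate 2, EGFP-negative replicate 1, EGFP-negative replicate 3 or both arrays of number 1 were left out. It was 3 without EGFP-high replicate 1 or 3, 7 without EGFP-negative replicate 2 and 9 with the replicate block, where the share lower among all genes tested was 5.33%.

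Most genes of the FOXO pathway list did not pass the test. Of 19 tested members 2 were higher, beside 3.06% of all genes tested, and 1 lower, beside 2.27%, and the median was 0.028. Pik3r1, the regulatory subunit of PI3 kinase, rose from 121 ± 21 to 336 ± 94.7 (log2 1.32, SE 0.22, limma adjusted p = 0.00902). Sgk1, a kinase that phosphorylates FOXO factors, rose by 1.02 on the log2 scale (adjusted p = 0.0358 by limma; lost without any 1 of 4 arrays, with 0.148 when EGFP-high replicate 3 was left out). Ccng2, a cyclin known as a FOXO target, fell from 331 ± 23.3 to 125 ± 22.1 (log2 -1.29). With the replicate block 3 were higher and 3 lower, beside 5.29% and 5.33% of all genes tested. Without EGFP-high replicate 1 the number higher was 3. Leaving out EGFP-high replicate 2 or 3 or EGFP-negative replicate 3 gave 1 higher and 2 lower, and leaving out EGFP-negative replicate 2 gave 1 higher.

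**Figure D4:**
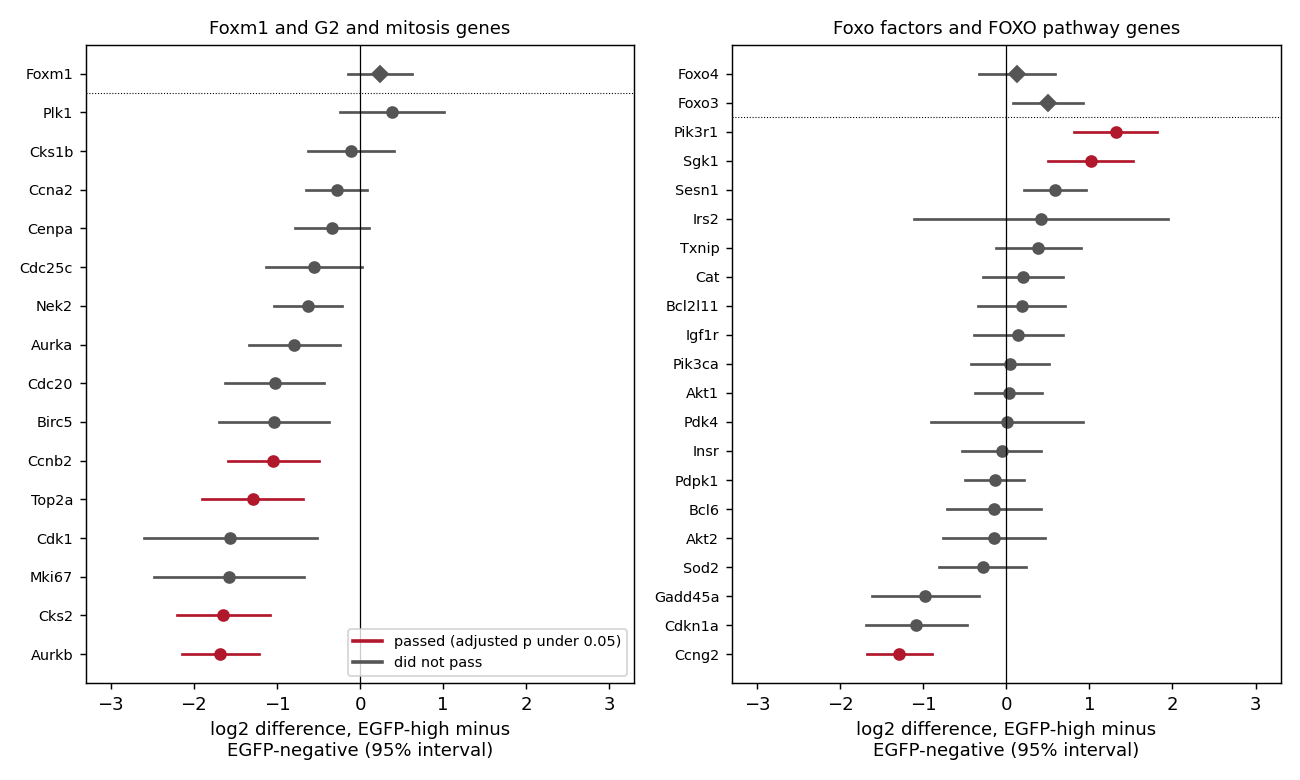
The log2 difference, EGFP-high minus EGFP-negative, with its 95% interval (x axis, n = 3 arrays per group) for Foxm1 and 15 G2 and mitosis genes (left) and for Foxo3, Foxo4 and 19 FOXO pathway genes (right); diamonds mark the factors themselves. Foxm1 98306_g_at sits at 0.24 above a column of G2 and mitosis genes with a median of -1.03, and the FOXO genes spread on both sides of 0. The other Foxm1 probe set, 98305_at, was below the control level on all arrays, was not tested and is not shown.

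The forkhead genes Foxc1, Foxc2 and Foxn1 were too dim for the main test. Foxc1 read 40.7, 56.1 and 80.9 in EGFP-high and 19.5, 31.2 and 25.4 in EGFP-negative cells. EGFP-high was higher on every array, but it was above the control level on only 2 of 3 arrays and the probe set was too dim to be tested. Without the filter on low values its log2 difference was 0.79 (SE 0.26, limma adjusted p = 0.211). Foxn1 read 29.9, 41.1 and 12.7 against 62.1, 39.1 and 44.3 and Foxc2, on 102800_at, 55.3, 41.5 and 29.1 against 37.1, 9.9 and 19.3. The groups overlapped for both, Foxn1 was above the control level in EGFP-negative only and Foxc2 in EGFP-high only, and neither was tested with the filter. Foxc2 162016_f_at, at 3.1 to 15.9, was above the control level on no array.

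Several forkhead genes known from other tissues read above the control level in both groups with no call. Foxd2 had 193.7, 184.7 and 170.4 against 250.9, 217.3 and 199.2, groups that did not overlap (log2 -0.25, 95% interval -0.61 to 0.11). Foxl1, a gene of gut mesenchyme, gave 232.3, 258.3 and 165.9 against 178.1, 193.7 and 201.5. For Foxj1, the factor of motile cilia, the values were 117.5, 78.7 and 33.3 against 107.2, 32.4 and 76.8. Both had overlapping groups, and Foxj1 varied 3-fold or more within each group.

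No probe set of 12 further forkhead genes was above the control level in either group. They were the FoxA genes Foxa1, Foxa2 and Foxa3, known from endoderm, with values of 2.9 to 24.3, and Foxb1, Foxb2, Foxd1, Foxd3, Foxd4, Foxf1, Foxf2, Foxh1 and Foxn2. Some arrays exceeded the level for Foxb2, Foxd1 and Foxn2. The second probe sets of Foxk2 (92413_at) and Foxn3 (104664_at) were above it in neither group as well. Over all 32 untested members the groups did not overlap for 6, beside 11.9% of the 4969 untested probe sets. Those 6 were Foxc1, Foxd1, Foxf2, Sox2, Sox3 161276_i_at and Sox6 161211_r_at.

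Among Sox genes the SoxC factor Sox4, a factor of progenitor cells, did not pass the test and passed with the replicate block. Its probe set 101430_at read 90.4, 95.6 and 79.7 in EGFP-high and 133.6, 272.1 and 161.9 in EGFP-negative cells. The groups did not overlap. The log2 difference was -0.90 (SE 0.24), with a limma adjusted p of 0.0763, and of 0.0243 with the replicate block. Leaving out EGFP-negative replicate 1 gave an adjusted p of 0.045 by limma. The brighter probe set 160109_at read 387.4, 248.3 and 271.6 against 441.2, 344.3 and 345.9. On it the groups overlapped, EGFP-high was lower in all 3 pairs, and the log2 difference was -0.32 (95% interval -0.77 to 0.14). Sox11, of the same group, was above the control level in neither group on either probe set (2.7 to 49.7).

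The SoxD gene Sox6 did not pass the test on its brighter probe set, and both of its probe sets had their lowest values in EGFP-high cells. On 92726_at it read 47.4, 25.8 and 28.6 in EGFP-high and 56.6, 71 and 74.6 in EGFP-negative cells. The groups did not overlap, with a log2 difference of -0.72 (95% interval -1.27 to -0.17) and a limma adjusted p of 0.149. The dimmer 161211_r_at read 9.3, 3.4 and 2.4 against 47.2, 22.5 and 26.5. It was above the control level on 2 of 3 EGFP-negative arrays and on no EGFP-high array, and was too dim for the main test. Without the filter its log2 difference was -1.06 (SE 0.22, limma adjusted p = 0.0449), and it was then 1 of 3 members that passed, with Foxp1 104415_at and Foxq1 and without Foxk1, beside 2.63% of all 12422 probe sets. Sox13, also SoxD, read 270.1, 324.1 and 364.7 against 325.4, 309.2 and 335.1. These groups overlapped (log2 -0.02, 95% interval -0.39 to 0.34). Sox5, the remaining SoxD gene, read 3.9 to 36.8 and was above the control level in neither group.

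The Sox genes of other cell types were read beside markers of those cells. Sox10 102856_at read 195.6, 215.5 and 276.2 in EGFP-high and 155, 215.3 and 170.4 in EGFP-negative cells, with overlapping groups (log2 0.31, 95% interval -0.12 to 0.75). Its other probe set, 100283_at, read 6.1 to 14.4 and was below the control level on every array, so the arrays do not settle whether Sox10 was expressed. Of 8 melanocyte markers 3 (Mitf, Dct and Pmel) were above the control level, and Tyr, Tyrp1, Kit, Ednrb and Pax3 were above it in neither group. Summed intensity of the 8 was 366 to 555 in EGFP-high and 314 to 347 in EGFP-negative cells, and Mitf, the melanocyte regulator, rose (log2 1.13, limma adjusted p = 0.0147; 0.0596 when EGFP-high replicate 3 was left out, and lost as well when EGFP-negative replicate 3 was). Of 5 Schwann cell markers 4 were above the control level, S100b was not, and the sum was 1250 to 1315 against 1366 to 1952. The part of either cell type in the Sox10 values was not tested.

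The SoxF genes, known from endothelium, were above the control level on 1 probe set each and did not pass the test. Sox7 read 142.7, 140.6 and 163 against 126.2, 189.4 and 268.4. For Sox17 92996_at the values were 44.1, 83.1 and 54.8 against 52.6, 72.1 and 30. Sox18 161025_f_at had 115.3, 82 and 51 against 116.8, 104.2 and 61.9, lower in EGFP-high in all 3 pairs with overlapping groups. Their 95% intervals reached from -0.84 to 0.85 on the log2 scale. The other probe sets, Sox17 92997_g_at (7 to 12.7) and Sox18 104408_s_at (5.4 to 26.9), were above the control level in neither group. Of 10 endothelial markers Pecam1 and Eng were above it, and Kdr, Cdh5, Tie1, Tek, Flt1, Vwf, Cd93 and Emcn were not, with a sum of 405 to 522 in EGFP-high and 450 to 529 in EGFP-negative cells.

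The SoxB1 genes, which maintain neural progenitors, were mostly dim. Sox2 read 13.9, 16.5 and 15.6 against 1.3, 11.1 and 8.2, apart in value but below the control level on every array, and Sox1 read 14.1 to 60.9 and was above it in neither group. Of 4 Sox3 probe sets 103302_r_at read 169.1, 178.6 and 136.6 against 92.3, 183.7 and 191.1 and 103301_i_at 29.8, 45.7 and 30.3 against 34.1, 86.4 and 42.8. Groups overlapped on both, and 103301_i_at was above the control level in EGFP-negative only. The remaining 2, 92264_at and 161276_i_at, were above the control level in neither group. Letters before the final _at, such as _r, _i, _f, _g and _s, mark probe sets that relaxed a design rule or can share signal with related transcripts. Of 6 dermal papilla markers 2 and of 6 Merkel cell markers 2 were above the control level, and the Merkel markers Krt8, Krt18, Atoh1 and Isl1 were not. Sox15, the SoxG gene, read 80, 93 and 65.1 against 78.3, 73.3 and 102.7 with overlapping groups (log2 -0.08, 95% interval -0.54 to 0.39).

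Genes known to act beside Sox9 and Foxc1 in follicle stem cells were called in both directions. Of 24 tested members 7 were higher, beside 3.06% of all genes tested, and 3 lower, beside 2.27%. Their median was 0.67, and the list holds bulge markers that may have been reported from these arrays, so its direction is not independent evidence. The largest that rose were Cd34 (log2 4.77), the receptor Lgr5 (log2 3.77), the helix-loop-helix inhibitor Id2 (log2 3.17) and the ligand Fgf18 (log2 2.71), which rose from 15.5 ± 11.5 to 205 ± 55.2. Cd34, Lgr5 and Fgf18 were not above the control level in EGFP-negative cells, so those sizes depend on the pseudocount. Gata3, a factor of the inner root sheath, fell from 1893 ± 295 to 455 ± 24.7 (log2 -2.00), Cux1 by 1.18 and Bmp4 by 0.76. The number higher was 4 without EGFP-high replicate 3 and 12 with the replicate block, which called 5.29% of all genes tested as higher. With EGFP-high replicate 3 left out Id2 no longer passed (adjusted p = 0.0608). Bmp4 lost its call without any 1 of 5 arrays (0.091 when EGFP-high replicate 3 was left out).

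On the hair shaft list 2 genes were called, and on that of cartilage targets of Sox factors none of 5 tested. Of 11 tested genes on the list built around Foxn1 and the hair shaft 1 was higher, the homeobox gene Dlx3 (152 ± 23.1 against 23.7 ± 11.3, log2 2.02, not above the control level in EGFP-negative cells), and 1 lower, Gata3, which is on both lists, beside 3.06% higher and 2.27% lower among all genes tested, and the median was 0.022. Of 11 measured cartilage targets of Sox9, Sox5 and Sox6 6 were above the control level, 5 were tested and 0 passed by limma in either direction, also with the replicate block, and Col2a1, the classic target, was above the control level in neither group.

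Markers of further cell types were above the control level in part. Summed T cell markers were 263 to 410 in EGFP-high and 84.2 to 232 in EGFP-negative cells, with 2 of 8 (Cd3g and Cd4) above the control level. The sums did not overlap, and Cd4, the 1 marker bright enough to be tested, was not called. For macrophages and Langerhans cells 5 of 9 were above it and the leukocyte marker Ptprc was not, with a sum of 638 to 856 against 541 to 823. For fibroblasts 5 of 8 were above it and Col3a1, Dpt and Vim were not (1049 to 1369 against 1070 to 1246), and for muscle 5 of 7 (548 to 674 against 610 to 769). Basal keratinocyte markers had sums of 22244 to 25783 against 26020 to 29503, which did not overlap. A sum is weighted to the brightest probe sets, and the median log2 difference of the 9 tested was 0.083. Of those 9, 0 were higher and 2 lower (Itga6 and Sfn), beside 3.06% and 2.27% of all genes tested, and 7 were not called. Of the 12 basal keratinocyte markers 9 were above the control level, and the keratins Krt5, Krt14 and Krt15 were not. Markers that are not above the level thus do not show that a cell type was absent. Bulge markers had sums of 17311 to 20007 against 2638 to 3367. The bulge list too holds markers that may have been reported from these arrays, so its direction is not independent evidence. The part of these cell types in the differences of Foxp1, Foxq1 and Foxk1 was not tested.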

How the data were processed

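RNA of 6 samples was hybridised to 1 Affymetrix mouse array each. The authors deposited 1 linear intensity per probe set and array. The software behind it is not given in the sources used here. All columns had the same mean after trimming 2% at each end (150.1), which shows a common scaling before deposit. Samples were grouped by their titles. The 66 control rows were left out of tests. Gene symbols came from the platform annotation, and all 54 members matched the RefSeq table (GRCm38.p6) by Entrez identifier.

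log2(intensity + 19.3) was fitted with limma 3.58.1 in R 4.3.3 (lmFit, eBayes with an intensity trend; 4 residual and 4.96 prior degrees of freedom), without the replicate number. The fit was also run on simulated data with noise drawn independently for each array, so that run does not cover arrays that vary together. Deviations of same-number arrays from their group means correlated at 0.336, 0.368 and 0.305, all above the limit of 0.1. Those of different-number arrays of the 2 groups correlated at -0.257 to -0.063. The numbers in the titles may thus pair the samples, which the labels do not state. For that reason the main fit left the number out, and its calls do not use such a pairing. The block fit is printed where it changed a call or a count. No 2 arrays held identical values. Alternatives were other pseudocounts, filters, normalizations, variance priors and left-out arrays. The number of arrays limits the precision.

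All 54 members are named. Values on every array are given for those above the control level in a group, and of each companion list at most the 4 largest calls in each direction are named. Companion and marker genes are represented by their brightest probe set. The members, gene lists, rule for naming genes and alternatives were chosen with earlier results of these data known. The sequences come from the RefSeq promoter table.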

Additional observations from a re-analysis of the deposited data

How the results depend on the processing

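Foxp1 104415_at and Foxq1 kept their direction and call in all 15 alternatives. Foxk1 kept its direction in all 15 and its call in 9. The number of Fox and Sox probe sets higher, 1 as reported, was 2 with the replicate block and 2 without both arrays of number 1, Foxp1 96183_at being added in both, and 1 to 2 without single arrays. The number lower, 2 as reported, was 3 with the block and 1 to 2 without single arrays, being 1 without replicate 2 or 3 of either group, where Foxk1 was lost. Without EGFP-negative replicate 1 it was 2, with Foxk1 lost and Sox4 101430_at added. Without the filter on low values it was 2, Foxq1 and Sox6 161211_r_at. Companion genes of all 5 lists, 10 higher and 8 lower as reported, came to 16 higher and 15 lower with the block and to 5 lower without both arrays of number 1. Without single arrays they were 6 to 11 higher and 5 to 10 lower. Members above the control level, 25 as reported, were 25 to 28 without single arrays.

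Small differences that changed sign were all without a call. Without both arrays of number 1 the log2 difference was 0.0899 for Sox13 and -0.23 for Sox3 103302_r_at. Without single arrays the differences reached -0.31 to 0.43 for Foxj1, -0.053 to 0.25 for Foxo4, -0.119 to 0.085 for Sox13, -0.174 to 0.0438 for Sox15, -0.0491 to 0.396 for Sox17, -0.395 to 0.0741 for Sox18 and -0.201 to 0.256 for Sox3. The cause was not tested in any of these. Sox6 92726_at fell below the filter, and has no value, without EGFP-negative replicate 2 or 3. The block changed no other call among the members than those of Foxp1 96183_at and Sox4 101430_at. Signal over background limited what was tested, since 32 members were too dim for the main test.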
